A study of Homo sapiens with 2 samples.

Results

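Peaks of histone H4 acetylated at lysine 5 (H4K5ac) were examined around 10 genes of the NOTCH pathway in a squamous carcinoma cell line. The 10 genes are the receptors NOTCH1, NOTCH2 and NOTCH3, the ligands JAG1, JAG2 and DLL1, the target genes HES1 and HEY1, and the nuclear factors MAML1 and RBPJ. They were taken by symbol from the RefSeq gene table of GRCh38.p14, where all 10 were found among 19974 protein-coding genes. A peak was assigned to a gene when it overlapped the gene span or the 20 kb (20000 bp) either side of it by at least 1 bp. These windows, which do not overlap each other, held 68 of the 120033 normoxia peaks and 120 of the 258195 hypoxia peaks.

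Chromatin immunoprecipitation followed by sequencing was run on FaDu, an established human head and neck cancer line of squamous origin. There were 2 libraries, 1 from normoxic cells and 1 from cells held at 1% oxygen for 18 h, and each was deposited as its own peak list. The sample labels name H4K5ac as the target, while the design text of the series names another acetylated histone residue; the labels are followed here. METTL4 knockdown is mentioned in the culture protocol, but neither library is labelled as a knockdown. With 1 library of 1 cell line per condition there is no replicate check, no test of hypoxia was possible, and intervals below cover counting error only. The sources used here do not state read totals. The lowest background recovered from the peak values was 3.13 reads for the normoxia library and 3.24 for the hypoxia library. These values are not read totals and do not show that the libraries were of equal depth. The hypoxia list was 2.15 times as long as the normoxia list, so every count below is read against that ratio.

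NOTCH receptors are cut after binding a ligand of the Jagged or Delta family on a neighbouring cell, and the released intracellular part enters the nucleus. There it joins the DNA-binding protein RBPJ and a Mastermind coactivator such as MAML1, which recruits histone acetyltransferases, and genes of the HES and HEY repressor families are switched on. In stratified squamous epithelium the pathway drives cells out of the basal layer into differentiation, and loss-of-function changes of NOTCH1 are frequent in head and neck squamous carcinoma. H4K5ac is a mark of active promoters and enhancers.

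The DNA just upstream of 4 member starts is shown first, because the peak gaps and flanking peaks described below lie around it. Each run is the 250 bases before the start listed by RefSeq (GRCh38.p14), 5′ to 3′ on the gene's strand, in lower case. Capitals mark the RBPJ recognition core TGGGAA (with a preceding G where present, GTGGGAA) and the hypoxia response element cores ACGTG and GCGTG, on either strand. The HES1 stretch is on the plus strand (chr3:194135898-194136147), RBPJ on the plus strand (chr4:26319496-26319745), JAG1 on the minus strand (chr20:10674000-10674249) and NOTCH1 on the minus strand (chr9:136546049-136546298).
HES1: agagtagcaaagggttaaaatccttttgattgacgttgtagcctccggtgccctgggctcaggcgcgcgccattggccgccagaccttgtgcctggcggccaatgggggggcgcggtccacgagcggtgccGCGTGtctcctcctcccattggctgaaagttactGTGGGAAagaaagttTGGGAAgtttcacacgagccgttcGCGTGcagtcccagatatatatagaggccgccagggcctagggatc
RBPJ: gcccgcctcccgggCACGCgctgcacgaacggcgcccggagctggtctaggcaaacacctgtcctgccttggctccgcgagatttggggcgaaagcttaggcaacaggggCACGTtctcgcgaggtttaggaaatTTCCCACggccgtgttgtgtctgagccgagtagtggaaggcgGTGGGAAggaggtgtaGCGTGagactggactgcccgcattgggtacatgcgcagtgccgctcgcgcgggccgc
JAG1: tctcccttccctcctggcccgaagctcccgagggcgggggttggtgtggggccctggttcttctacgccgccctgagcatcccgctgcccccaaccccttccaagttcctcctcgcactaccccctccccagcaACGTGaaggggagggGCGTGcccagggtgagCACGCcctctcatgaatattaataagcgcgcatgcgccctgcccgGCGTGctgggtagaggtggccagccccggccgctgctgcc
NOTCH1: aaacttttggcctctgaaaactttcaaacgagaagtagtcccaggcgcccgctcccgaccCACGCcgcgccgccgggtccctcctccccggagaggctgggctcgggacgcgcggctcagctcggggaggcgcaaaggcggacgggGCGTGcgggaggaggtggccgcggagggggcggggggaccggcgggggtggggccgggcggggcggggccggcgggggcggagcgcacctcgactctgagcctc

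The table listed starts for 8 of the 10 genes, with 12 stretches in all because RBPJ has 5 starts. The RBPJ core was present, on either strand, in 2 of the 12 stretches, those of HES1 and RBPJ shown above, against 20.8% of 35116 promoters in the table. In HES1 it occurred 2 times on the gene's strand, at -84 to -79 (within the longer form) and at -70 to -65 from the start. RBPJ had it 2 times as well, on opposite strands at -115 to -110 and at -72 to -67, each within the longer form GTGGGAA, which 5.43% of promoters hold. GCGTG was present in 8 of the 12 stretches (32.2% of all promoters) and ACGTG in 2, JAG1 and RBPJ (18.5%). JAG1 held 3 copies of the former beside 1 of the latter. The palindromic E-box CACGTG, which contains the latter and which HEY proteins can bind, was in none of the 12, against 6.34% of all promoters. These are matches of letters in a short window and not measured binding sites. The 8 stretches with GCGTG, a core that contains CpG (C followed by G), held 17 to 40 CpG, beside a median of 11.0 over all promoters. Their GC content was 59.2 to 81.6%, beside a median of 58.0%. The part of this composition in the motif counts was not tested.

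H4K5ac peaks were more numerous in hypoxia around 8 of the 10 genes and equally numerous around JAG1 and HES1. The 68 normoxia and 120 hypoxia peaks gave a ratio of 1.76 (95% counting interval 1.30 to 2.41), against 2.15 over all peaks. The median ratio of the 10 windows was 1.83, beside 1.88 over the windows of 17575 protein-coding genes with at least 5 peaks in the 2 lists together. All 10 genes had that many. Pooled over those 17575 windows the ratio was 1.97. Hypoxia peaks were at least 2 times as many as normoxia peaks for 3 members, MAML1, NOTCH3 and DLL1, while 48.8% of all tested windows met that rule. For 2 members, JAG1 and HES1, the hypoxia number did not exceed the normoxia number, as in 9.17% of all tested windows. In base pairs the peaks covered 44376 bp in normoxia and 57817 bp in hypoxia, a ratio of 1.30 beside 1.69 over all peaks. The median base-pair ratio of the tested gene windows was 1.40.

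**Figure D1:**
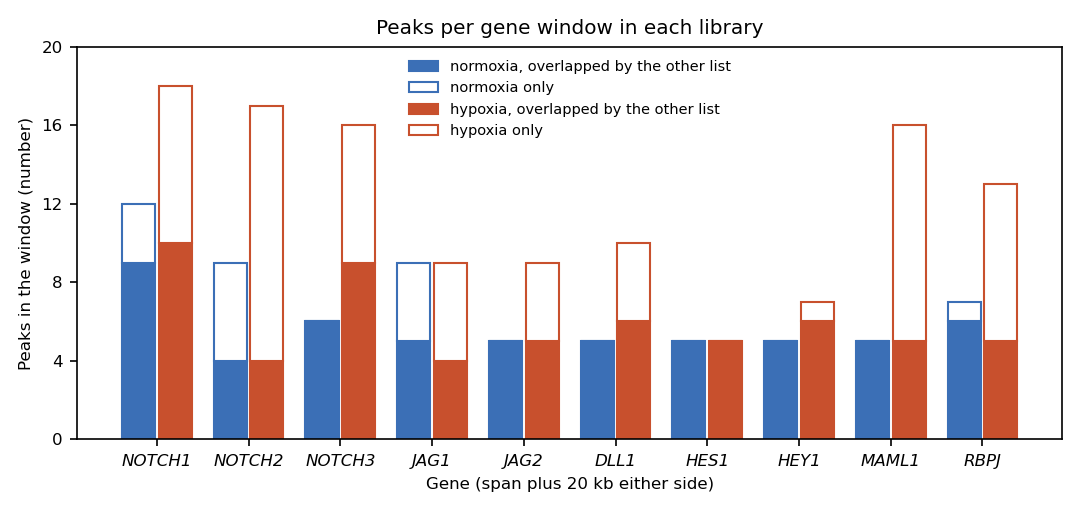
Number of H4K5ac peaks (y axis) in the window of each gene (x axis, gene span plus 20 kb either side), blue for the normoxia library and orange for the hypoxia library; filled parts overlapped a peak of the other list and open parts did not. MAML1 went from 5 normoxia to 16 hypoxia peaks, whereas HES1 had 5 and JAG1 had 9 in each library.

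Most normoxia peaks of these genes had a hypoxia counterpart. Of the 68 normoxia peaks 55 (80.9%, exact Clopper-Pearson 95% interval 69.5 to 89.4%) overlapped a hypoxia peak, beside 68.7% over all normoxia peaks. In the other direction 59 of 120 (49.2%, 39.9 to 58.4%) were overlapped, beside 32.7% of the whole hypoxia list. The whole lists are not limited to gene windows, where shares were higher near starts. By distance from the start, shares over all gene windows ran from 66.7 to 93.8% in normoxia and from 30.7 to 80.3% in hypoxia. Member peaks were also stronger than most of their lists, with a median percentile by −log10 q-value of 72.4 in normoxia and 61.1 in hypoxia. Among strong peaks, defined by −log10 q of 10 or more, the shares lay near those of all strong peaks. There 29 of 30 in normoxia (96.7%, 82.8 to 99.9%) and 32 of 36 in hypoxia (88.9%, 73.9 to 96.9%) were overlapped, beside 98.3% and 86.6% genome-wide. Strong peaks thus numbered 30 and 36, a ratio of 1.20 (0.719 to 2.02), beside 1.63 over all strong peaks. With the hypoxia list cut to its 120033 strongest peaks the windows held 68 and 69 peaks. Every normoxia peak was overlapped in 6 windows (NOTCH3, JAG2, DLL1, HES1, HEY1 and MAML1), as in 32.6% of tested windows with a normoxia peak.

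**Figure D2:**
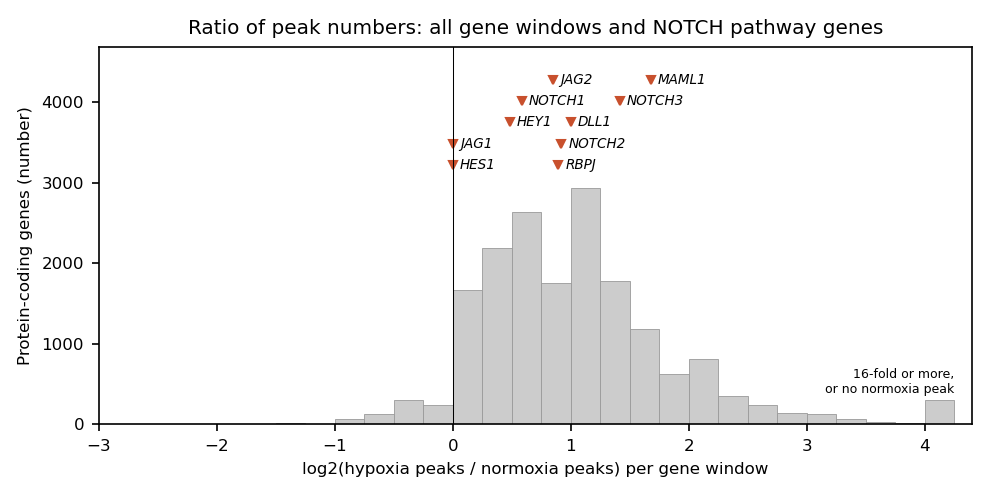
Histogram of log2(hypoxia peaks / normoxia peaks) over the windows of 17575 protein-coding genes (grey bars, number of genes on the y axis), with each NOTCH pathway gene marked by a triangle placed at its own ratio; triangle height has no meaning. The last bar collects windows with a ratio of 16 or more and the 280 windows with no normoxia peak. JAG1 and HES1 sit at 0, where 6.74 is their percentile among the tested windows, and MAML1 is the rightmost member at percentile 83.0.

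The receptor windows held 27 normoxia and 51 hypoxia peaks, a ratio of 1.89 (1.16 to 3.13). NOTCH1, the receptor most often inactivated in squamous tumours (chromosome 9, 136494433 to 136546048, minus strand), had 12 normoxia and 18 hypoxia peaks, the largest numbers of the 10. Its start lay in a gap between a pair of strong peaks in both libraries. Upstream, the normoxia peak (136546240 to 136547379) had its summit at -604 bp from the start and the hypoxia peak (136546291 to 136547321) at -564 bp. The authors' fold was 5.12 and 5.08, and −log10 q was 72.3 and 107, each within its own list. Downstream of the start the peaks spanned 136545124 to 136545944 in normoxia and 136545109 to 136545835 in hypoxia. Between 5 and 15 kb into the gene, normoxia had 4 peaks and hypoxia 5, all overlapped. The strongest peaks in the window (−log10 q 109 and 127) were not at NOTCH1 itself but lay beyond its 3′ end, over the listed starts of the neighbour SEC16A. Upstream, 2 strong hypoxia peaks had no normoxia peak over them. They lay at -5215 bp from the start (136551078 to 136551467, −log10 q 17.6) and at -18871 bp (136564759 to 136565145, 10.2). Close to the first, normoxia had a strong peak at -5773 bp (136551654 to 136551979, 11.6). It overlapped a hypoxia peak at -5874 bp (136551778 to 136552089, 9.61), so both libraries marked that region. The 3 normoxia-only peaks lay in the distal part of the gene body and none was strong. Local background was high here, at a median of 19.6 reads in normoxia and 36.6 in hypoxia, against 5.07 and 4.17 over all peaks; its part in these counts was not tested.

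NOTCH2 (chromosome 1, 119911553 to 120069662, minus strand) combined the start peak of highest fold with the least shared window. The start peak was nearly the same in both libraries, from 120068904 to 120069671 in normoxia and from 120068948 to 120069691 in hypoxia, with summits 1 bp apart. Its fold of 13.3 and 16.4 was the highest of any member peak in either list. With the start peak included, 4 of 9 normoxia and 4 of 17 hypoxia peaks were overlapped. A strong normoxia peak at -18733 bp from the start (120088134 to 120088610, fold 6.77, −log10 q 14.3, 27 reads at the summit over a background of 3.14) had no hypoxia peak over it. It was the only strong normoxia-only peak of the 10 windows, a kind found in 2.46% of all gene windows. A strong hypoxia-only peak lay 144060 bp into the gene (119925258 to 119925795, fold 5.88, −log10 q 12.6, also 27 reads, over 3.76). Of the 13 hypoxia-only peaks 6 lay in the 20 kb beyond the 3′ end. NOTCH2 has near-identical partial copies elsewhere on chromosome 1, so reads there are uncertain.

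NOTCH3 (chromosome 19, 15159038 to 15200995, minus strand) had 6 normoxia peaks, all overlapped, and 16 hypoxia peaks, a ratio of 2.67 (0.991 to 8.32). A wide peak covered the start in both libraries, 1371 bp wide in normoxia and 1344 bp in hypoxia, with summits 5 bp apart at 868 and 873 bp into the gene. In normoxia it had a fold of 3.96 and −log10 q of 12.0, and in hypoxia 5.37 and 34.4. Hypoxia added a weak peak just before the start, from 15201080 to 15201401. Part of the larger hypoxia number came from division of peaks: 3 of the 6 normoxia peaks each overlapped 2 hypoxia peaks. The 7 hypoxia-only peaks, the one before the start included, were all below −log10 q 10, and the strongest, 39404 bp into the gene, reached 7.16.

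The ligand windows held 19 normoxia and 28 hypoxia peaks, a ratio of 1.47 (0.794 to 2.79). JAG1, a ligand that keratinocytes themselves make (chromosome 20, 10637684 to 10673999, minus strand), had 9 peaks in each library, but only 5 normoxia and 4 hypoxia peaks overlapped. Of the 5 shared normoxia peaks 3 were at the start. The upstream peak was strong in both lists, at 10674167 to 10674923 in normoxia (fold 5.94, −log10 q 40.7) and 10674121 to 10675033 in hypoxia (8.17 and 97.2). Directly downstream, normoxia peaks of 731 and 265 bp faced a single hypoxia peak of 914 bp that overlapped both of them. The start itself lay between the upstream and downstream peaks in both libraries, as at NOTCH1. Within the gene, 3 normoxia-only and 4 hypoxia-only peaks alternated, none of them strong, and some stood close together: a normoxia peak ended at 10655213 and a hypoxia peak started at 10655258.

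JAG2, the second Jagged ligand (chromosome 14, 105140995 to 105168776, minus strand), had 5 normoxia peaks, all overlapped, and 9 hypoxia peaks. Its marked region lay inside the gene rather than over the start, and no peak of either list overlapped the 250 bases before the start. In normoxia it was a pair of peaks of 1310 and 1353 bp. In hypoxia the same stretch was divided elsewhere, into peaks of 2029 and 622 bp, so that the summits of the start-nearest peaks lay 1366 and 1006 bp into the gene. Shared peaks upstream stood at -5672 bp in normoxia and -5750 bp in hypoxia, and at the start of the neighbour NUDT14. The 4 hypoxia-only peaks had −log10 q from 2.46 to 3.54.

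DLL1, a Delta ligand (chromosome 6, 170282206 to 170291078), had 5 normoxia and 10 hypoxia peaks. The promoter table had no entry for it, so positions are given from the gene ends. A single normoxia peak of 1911 bp (170288849 to 170290759), the widest normoxia peak in any of the 10 windows, lay inside the high-coordinate end. Over the same end hypoxia had 4 peaks of 1218, 322, 217 and 259 bp, the last pair of them beyond the gene and without a normoxia counterpart. The FAM120B span (170290703 to 170407067) overlaps this stretch, so peaks at this end cannot be assigned to DLL1 alone. The strongest peaks of the window were an adjacent pair beyond that end (summits 15226 and 15852 bp away in normoxia), inside the FAM120B span. The stronger of them (170306663 to 170307538 in normoxia, 170306703 to 170307259 in hypoxia) had folds of 8.17 and 13.1 and ranked 1335 of 120033 and 547 of 258195 by −log10 q.

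The target gene windows held 10 normoxia and 12 hypoxia peaks, 10 and 11 of them overlapped. Their ratio of 1.20 (0.475 to 3.10) was the lowest of the 4 roles, although the intervals of all 4 overlapped. HES1, the best known NOTCH target and a repressor of differentiation genes (chromosome 3, 194136148 to 194138732, plus strand), had 5 peaks in each library, matched 1 to 1, with summits 7 to 111 bp apart. No peak of either list touched the gene itself or the 250 bases before it, where the TGGGAA pair printed above lies. The marked regions flanked the gene. Upstream, the peak ran from 194133688 to 194134877 in normoxia and from 194133798 to 194135409 in hypoxia, with summits at -1625 and -1596 bp from the start. Downstream, a pair of strong peaks had normoxia summits 5007 and 5754 bp after the start, with folds of 4.98 and 4.99 in normoxia and 6.55 and 7.02 in hypoxia. Reads at those summits numbered 172 and 164 in normoxia and 242 and 254 in hypoxia. Local background was also high, at a median of 28.5 and 27.6 reads. HES1 was the only member with a peak within 1000 bp of a start in hypoxia alone, a class that held 10.7% of all genes. Here the difference was one of width: the summits of this peak were 29 bp apart, but its start-side edge lay at 194134877 in normoxia and at 194135409 in hypoxia, and with 2000 bp either side HES1 counted in both libraries.

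HEY1, a target gene of the related HEY family (chromosome 8, 79764010 to 79767767), had 5 normoxia peaks, all overlapped, and 7 hypoxia peaks. Its positions are likewise given from the gene ends. A strong peak lay just beyond the high-coordinate end, at 79768291 to 79769139 in normoxia (fold 6.44, −log10 q 46.4) and at 79768343 to 79769090 in hypoxia (7.67 and 74.1), with summits 14 bp apart. The strongest peak of the window was distal, with its normoxia summit 16150 bp beyond that end, at 79783289 to 79784671 in normoxia (fold 9.57, −log10 q 74.1) and 79783551 to 79784425 in hypoxia (11.9 and 113). A peak inside the gene passed the strong threshold in hypoxia alone (−log10 q 3.58 in normoxia and 15.7 in hypoxia), although its summits were 14 bp apart.

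The windows of the nuclear factors held 12 normoxia and 29 hypoxia peaks, a ratio of 2.42 (1.20 to 5.20). MAML1 (chromosome 5, 179732822 to 179777283, plus strand) had the highest ratio of the members, with 5 normoxia peaks, all overlapped, and 16 hypoxia peaks (3.20, 1.12 to 11.2), at percentile 83.0 of the tested windows. The 5 shared sites included the start, marked from 179732774 to 179733767 in normoxia and from 179732773 to 179733703 in hypoxia, with folds of 5.82 and 8.55. The 11 hypoxia-only peaks were spread over both sides and the gene body, and none was strong. The strongest and widest of them lay at -6878 bp from the start (179725219 to 179726517, 1299 bp, fold 4.17, −log10 q 9.31), inside the span of the neighbour CANX. The strongest normoxia peak of the window (−log10 q 44.0) and strongest hypoxia peak (65.6) overlapped another neighbour, LTC4S. Without the MAML1 window the ratio over the other 9 genes was 1.65.

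RBPJ, which encodes the DNA-binding core of the pathway (chromosome 4, 26105449 to 26435131, plus strand), had 7 normoxia and 13 hypoxia peaks in the longest window, of 370 kb. No peak lay near the low-coordinate end of the span or near the listed start at 26163458. The mark was concentrated around 3 starts between 26319746 and 26321228. There normoxia had peaks of 372, 892 and 781 bp, and hypoxia had peaks of 292, 350 and 1451 bp. The widest hypoxia peak overlapped 2 of the normoxia peaks, and the 292 bp peak (26318675 to 26318966, −log10 q 12.5) was strong and had no normoxia counterpart. It was the only strong hypoxia-only peak within 1000 bp of a member start. Around the listed start at 26343140 each library had 1 weaker peak, and they overlapped. In all, 3 members (NOTCH1, NOTCH2 and RBPJ) had at least 1 strong hypoxia-only peak in the window, as did 19.4% of all genes.

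**Figure D3:**
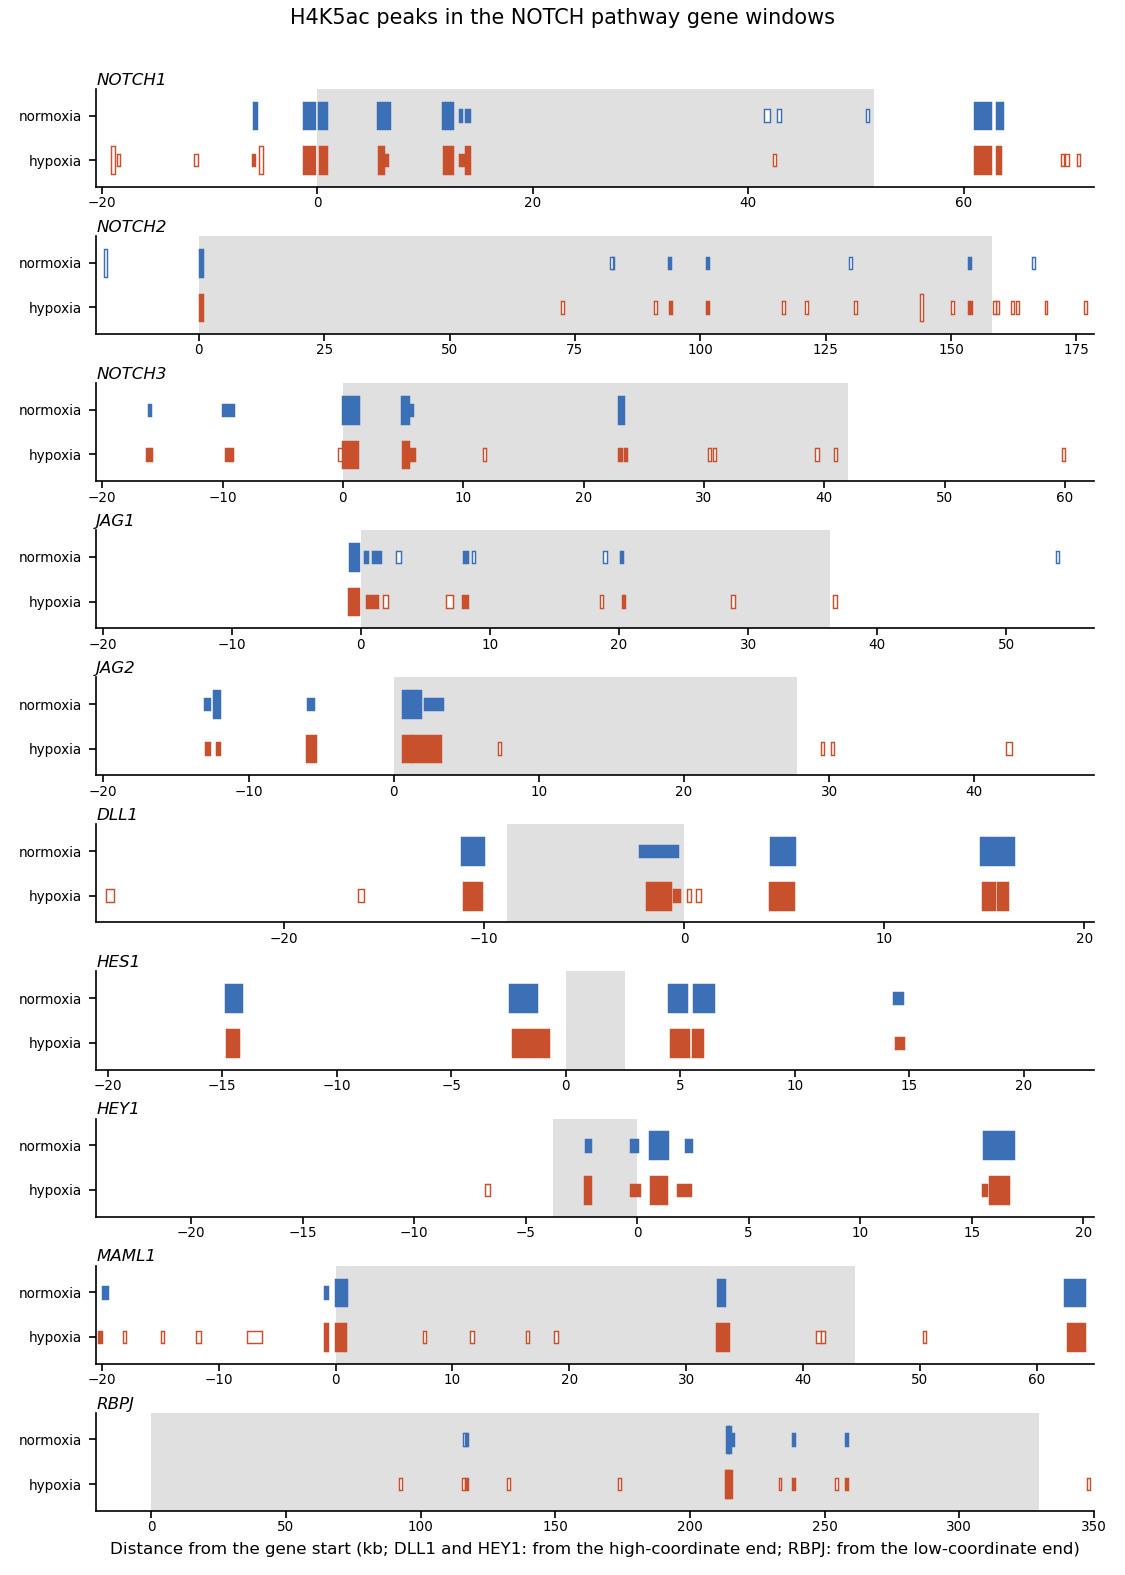
Map of the peaks in each gene window, with distance in kb on the x axis and 1 row per library; the gene span is grey, and tall and short boxes are strong and other peaks. Filled boxes overlapped a peak of the other list and open boxes did not, and narrow peaks are drawn at a minimum width. Distance runs along transcription from the gene start, but follows the coordinate from the high end for DLL1 and HEY1 and runs from the low end of the span for RBPJ, where neighbouring peaks merge at this scale. Filled boxes gather at the starts, and most open boxes are short and orange.

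Nearly all of the 10 genes carried a start peak. A peak within 1000 bp of a listed start, or of either gene end for DLL1 and HEY1, was present in both libraries for 9 of 10 genes, beside 69.7% of all protein-coding genes. It was strong in both for 8 of 10, all but HES1 and DLL1, beside 60.6%. By distance from the start the overlap followed the order seen in the windows of all protein-coding genes. Of normoxia peaks with the summit within 1000 bp, 15 of 15 were overlapped. Between 1000 and 5000 bp it was 8 of 9, between 5000 and 20000 bp 21 of 24, and beyond 20000 bp 11 of 20. The shares over all gene windows, where a peak counts once for each window that holds it, were 93.8%, 75.9%, 73.9% and 66.7%. Of hypoxia peaks the corresponding counts were 14 of 18, 8 of 11, 24 of 43 and 13 of 48, beside 80.3%, 46.3%, 36.5% and 30.7% over all gene windows.

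Where a peak of each list matched exactly 1 peak of the other, position was kept as well as it was genome-wide. The windows had 43 such pairs, with a median summit distance of 66.0 bp and 44.2% of pairs within 50 bp. Over 69577 pairs in the genome the values were 61.0 bp and 43.9%. Member pairs were wider in hypoxia in 15 of 43 cases (34.9%), beside 43.5% of all pairs. The smallest width in each list, 245 bp in normoxia and 215 bp in hypoxia, also differs and its part in the widths was not tested. Over all member peaks the median width was 501 bp in normoxia and 340 bp in hypoxia, and hypoxia-only peaks had a median of 282 bp.

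More reads covered the start summits in hypoxia in each of the 9 genes with a start peak in both libraries. The number of reads was recovered from the deposited fold and p-value of each peak. At NOTCH3 it was 43 in normoxia and 89 in hypoxia, the highest ratio of the 9 (2.07, 1.42 to 3.05). JAG1 had 97 and 180 (1.86, 1.44 to 2.40), and DLL1 48 and 80 (1.67, 1.15 to 2.44). The DLL1 summits lay 709 bp apart and those of JAG2, below, 360 bp apart, so their ratios compare reads at different positions. At the other genes the summits lay at most 40 bp apart. NOTCH2 had 64 and 104 (1.62), NOTCH1 202 and 300 (1.49) and HEY1 103 and 143 (1.39), all with intervals above 1. The local background under these peaks was also higher in hypoxia, by 1.51 times at NOTCH1, whose reads thus differed by no more than their background, 1.39 times at NOTCH2 and 1.17 times at HEY1. It was 1.56 times as high at NOTCH3, 1.36 at JAG1 and 1.47 at DLL1. The intervals of JAG2 (78 and 104, 1.33, 0.985 to 1.81), MAML1 (88 and 109, 1.24, 0.927 to 1.66) and RBPJ (59 and 71, 1.20, 0.840 to 1.73) included 1, with background ratios of 1.39, 0.831 and 1.09. These ratios were not corrected for sequencing depth. Over the 21888 pairs in the genome that were strong in both lists the median ratio was 1.37 and 83.6% of pairs were above 1. Of the 9 start intervals only those of NOTCH3 and JAG1 lay above 1.37, and the others, NOTCH1, NOTCH2, DLL1 and HEY1 among them, included it. The start peaks of DLL1 and JAG2 are not pairs of this kind. Each normoxia peak overlapped 2 hypoxia peaks, and that of DLL1 had −log10 q of 9.63. The 22 such member pairs had a median of 1.45, with 21 above 1; the exception was the HES1 peak at -14367 bp in normoxia, with 40 reads in normoxia and 30 in hypoxia. Background under those 22 pairs was 1.17 times as high in hypoxia, beside 1.06 over all.

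**Figure D4:**
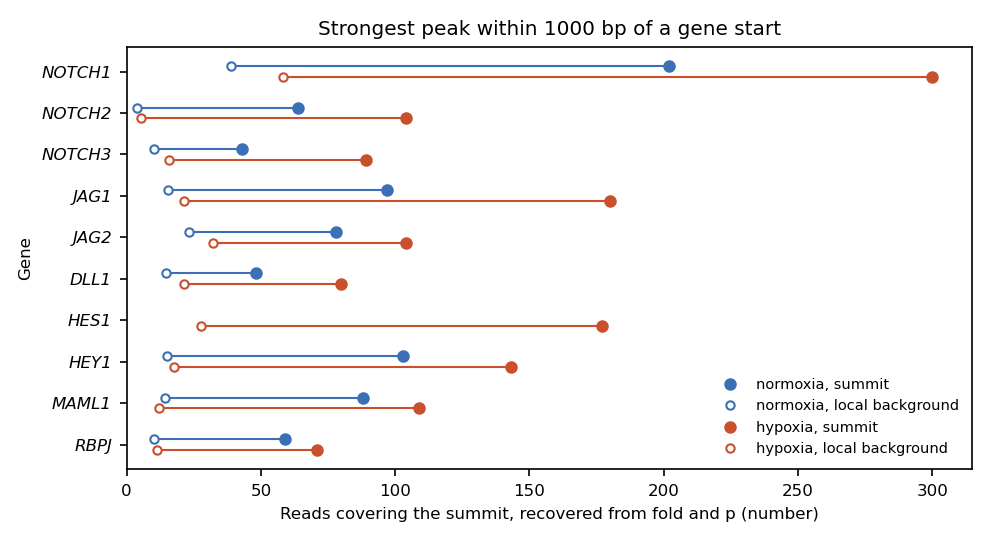
Reads covering the summit of the strongest peak within 1000 bp of a gene start (x axis, number of reads; filled circles) and the local background of that peak (open circles), for each gene (y axis) in normoxia (blue) and hypoxia (orange). The orange circle lies to the right of the blue one for all 9 genes with both, from 59 and 71 reads at RBPJ to 202 and 300 at NOTCH1, and HES1 has a start peak in hypoxia alone. Each library has its own summit, and the 2 summits lie 709 bp apart at DLL1 and 360 bp apart at JAG2.

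The rest of the pathway was examined through 53 further genes of NOTCH signalling. Their windows held 521 normoxia and 996 hypoxia peaks, a ratio of 1.91 (1.72 to 2.13), with a median of 1.86 per window. Start peaks were present in both libraries for 48 of the 53, in hypoxia alone for 4 (NOTCH4, DLL3, DLK1 and MFNG), in normoxia alone for none, and in neither for 1 (HES7). Over all genes 69.7% were marked in both and 10.7% in hypoxia alone. DLL3, DLK1 and MFNG were looked up at both gene ends for want of a listed start, as were 4162 genes in all, of which 14.4% were marked in hypoxia alone. All 8 protease genes of receptor cleavage, all 11 genes of endocytosis and ubiquitination, all 7 coactivator genes and all 8 corepressor genes were marked in both. NOTCH4 encodes a receptor best known from endothelium, DLL3 and DLK1 divergent or inhibitory ligands, and MFNG a Fringe glycosyltransferase; none of their start peaks was strong. The highest ratios belonged to DLL3 (2 normoxia and 10 hypoxia peaks), the ubiquitin ligase gene MIB1 (6 and 24) and MFNG (4 and 14). The lowest belonged to HES2 and HES4 (7 and 6 each). APH1B, a subunit gene of the receptor-cleaving protease (6 and 6), came next with a ratio of 1.00. That ratio was shared by POGLUT1, DTX4, FBXW7 and HDAC1. By peaks per 100 kb in the 2 libraries, HEY2, DLL4 and CTBP1 came closest to the median of the 10 members (8.79 in normoxia and 14.6 in hypoxia), with 9.68 and 13.6, 10.1 and 16.1, and 7.60 and 16.5.

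Effector genes of the pathway outside the 10 were counted in the same way. The 8 further effector genes (HES and HEY members and NRARP, a feedback inhibitor) held 53 normoxia and 63 hypoxia peaks, a ratio of 1.19, beside 1.75 for glycosyltransferase genes, 1.81 for the further ligand genes, 1.88 each for protease and trafficking genes, 2.09 for corepressor genes and 2.35 for coactivator genes. Over all 10 effector genes together there were 63 and 75 peaks (1.19, 0.840 to 1.69), 90.5% and 73.3% of them overlapped. Hypoxia peaks were at least 2 times as many in 1 of these 10 windows, that of HES5 (4 and 8). The genes are short, with windows of 41.1 to 56.2 kb. Over the 7266 tested windows of at most 60 kb, 41.5% met that rule, beside 48.8% of windows of every length, and 84.1% of normoxia and 50.7% of hypoxia peaks were overlapped. In those short windows the median ratio was 1.67 and the pooled ratio 1.72, beside 1.97 pooled over windows of every length. The effector genes were grouped by function and not by these values, and no test was made of their difference from other genes.

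Start peaks were also looked up at 26 marker genes of squamous epithelium and other cell types. Peaks lay at the start of 9 of 10 squamous epithelial markers in each library, among them KRT5 and KRT14, and TP63 had none there although its window held 28 normoxia and 40 hypoxia peaks. Markers of blood, endothelial, fibroblast, liver, neural and muscle cells had start peaks for 7 of 16 genes in normoxia and 12 of 16 in hypoxia. Over all genes 70.6% had a start peak in normoxia and 80.4% in hypoxia, so the hypoxia count of these markers lay near that of any gene. With only 10 squamous markers, 9 of 10 is also not far from those shares. The start peaks therefore cannot decide the identity of the line. The 7 marked in both libraries were CD14, VWF, COL1A1, COL1A2, SYP, RBFOX3 and DES, while PTPRC, PDGFRB, DCN and ALB had none in either. Expression was not measured here.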

How the data were processed

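Sequencing gave single-end reads of 75 bp, per the labels' protocols. Per the files, the authors called peaks separately in each library on hg38; MACS2 and SICER are named in the submitters' processing notes, but the sources used here do not state versions, settings or a control. The deposited values are the authors' score, summit offset, fold (a ratio to local background at the summit) and −log10 of the p-value and q-value. They were used only to describe or rank peaks within their own list. Percentiles and ranks refer to that list.

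Gene spans and starts came from RefSeq tables of GRCh38.p14, which is hg38; exons and introns were not distinguished. Genes without a listed start were anchored at both ends. CIR1 was matched by its current symbol, CIRSR. Overlap meant at least 1 bp. Reads at a summit (k) and background (b) were solved from fold = (k + 1) / (b + 1) and a Poisson tail for p; k came out whole, within 0.02, in 100.0% of peaks of both lists. Shares have exact Clopper-Pearson 95% intervals and ratios of numbers the matching conditional intervals; neighbouring peaks are not independent. Python 3.11.15, numpy 2.4.6, pandas 2.3.3 and scipy 1.17.1 were used, and the overlap and read-recovery steps were tested on simulated data. Named genes were the 10 members, and of the 53 further genes those with a start class that differed, the 3 highest and 3 lowest ratios and the 3 nearest in peak density; in each window the strongest, widest and strongest unshared peaks. HES5, HES7, NRARP, the genes tied with APH1B, single markers and neighbours, and peaks outside that rule, were named after their values were seen. The members and lists were chosen with earlier results of these data known. Alternatives were a −log10 q of at least 2 or 10, equal list lengths, other windows, 50% overlap and stitching; leaving out NOTCH2 or MAML1 and using either gene end were added after the data were seen.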

Additional observations from a re-analysis of the deposited data

How the results depend on the processing

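Of 40 recomputed values, 32 stayed within the interval of the main value, or within 1.5 times a main count, and 8 moved. The ratio of member peaks (1.76) moved to 1.20 with −log10 q of at least 10 in both lists and to 1.01 with equal list lengths; genome-wide these settings gave 1.63 and 1.00. The overlapped share of hypoxia peaks (49.2%) moved to 75.0% and 69.6% under the same settings, beside 56.7% and 54.1% genome-wide. The number of members with at least 2 times as many hypoxia as normoxia peaks (3) was 0 under each of these settings, and 5 both with 50 kb flanks and with peaks within 500 bp stitched. The share of all gene windows that met this rule was not recomputed under the alternative settings. These counts therefore cannot be read as particular to the members. With −log10 q of at least 10 and with equal list lengths the intervals of the ratio, 0.719 to 2.02 and 0.715 to 1.44, included 1. The former interval also included its genome-wide ratio of 1.63, and equal list lengths by themselves set the genome-wide ratio to 1.00. The overlapped share of normoxia peaks ranged from 70.6 to 86.7%, and members with a start peak in both libraries from 8 to 10. Over all genes the start share was 69.7% in the main setting and 60.6% for strong peaks. It was not recomputed for the other settings. Without the NOTCH2 window the ratio was 1.75. With 5 to 18 peaks per library, the ratios of single windows are imprecise, and of the 10 that of MAML1 alone had an interval above 1. The intervals of all 10, that of MAML1 included, held both 1.88, the median of all tested windows, and 2.15, the ratio over all peaks. No paired analysis was possible because each condition has 1 library.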
